A study of Homo sapiens with 3 samples.

Results

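The 36 genes described here make sterols and fatty acids or regulate that synthesis, and all 36 were found by symbol among 58892 gene IDs listed in every library. They were chosen by name as known members of these pathways: 18 enzymes of cholesterol synthesis, the sterol carrier STARD4, 14 genes of fatty acid synthesis, elongation, desaturation and activation, and the regulators SREBF1, SREBF2 and INSIG1. The medium was DMEM throughout, and the libraries were KKU-213 at 5.6 mM glucose, called NG, KKU-213 at 25 mM glucose, called HG, and KKU-213L5 at 25 mM glucose, called L5. KKU-213 is an established cell line from an intrahepatic cholangiocarcinoma, a bile duct cancer, and KKU-213L5 is known as its highly metastatic subline. All cultures had fetal bovine serum, a source of lipoprotein cholesterol and fatty acids, were past passage 5 and were harvested at confluence. There was 1 library per group, so no difference has a replicate check and no test across cultures exists.

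Animal cells build cholesterol from acetyl-CoA through mevalonate, farnesyl diphosphate, squalene and lanosterol. They build palmitate from the same acetyl-CoA, then elongate it and put in double bonds. Genes of both routes are targets of the SREBP transcription factors, which are made as membrane proteins of the endoplasmic reticulum. SCAP carries SREBP to the Golgi, where proteases release the active part, and INSIG proteins hold the complex back when sterols are plentiful. SREBP-2, from SREBF2, acts mainly on sterol genes and SREBP-1, from SREBF1, mainly on fatty acid genes, and both work with NF-Y, which binds CCAAT boxes.

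SCD, the member with the largest differences in HG against NG and in L5 against HG, has this sequence over the 250 bases before its start in RefSeq (GRCh38.p14, chr10:100346983-100347232, plus strand). The capitals mark its CCAAT letters.

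SCD: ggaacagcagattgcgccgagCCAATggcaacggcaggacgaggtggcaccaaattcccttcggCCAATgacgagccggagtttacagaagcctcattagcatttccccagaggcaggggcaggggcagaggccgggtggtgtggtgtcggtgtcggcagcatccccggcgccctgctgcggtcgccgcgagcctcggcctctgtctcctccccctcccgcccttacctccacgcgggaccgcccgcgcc

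RefSeq windows of 250 bases before to 50 after a start were at hand for 32 of the 36 genes (not ACAT2, FASN, FDFT1 and SQLE), 43 windows in all, some of them overlapping windows of 1 gene. CCAAT was found on either strand in 30 of the 43 windows, from 26 genes, against 34.6% of all 35116 windows. Places where CCAAT and its complement overlap, as in IDI1 and NSDHL, were counted on each strand. The letters TCACNCCAC, a core of the sterol response element bound by SREBP, were found in 1 member window, against 1.13% of all windows. That window is SREBF2's own (GRCh38.p14, chr22:41832972-41832980, plus strand), shown with 10 bases on each side and the match in capitals because it lies in the gene for SREBP-2.

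SREBF2: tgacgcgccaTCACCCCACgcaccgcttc

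CACGTG, an E-box, was found in 5 member windows, from ELOVL5, INSIG1, LSS and SC5DL, against 7.26% of all windows. These are letter matches in a short window and show no binding.

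Levels are given in FPKM, fragment numbers scaled to transcript length and library size, as deposited, so levels of different genes can be set side by side. Depth, computed from the deposited coverage, was about 47131781 (NG), 76005884 (HG) and 68713381 fragments (L5). The median fragment number behind a member was 3450, 7406 and 4803 in NG, HG and L5. Of 7 biliary markers, 6 were at 1 FPKM or more in every library, led by KRT7 at 784 to 992 FPKM. The summed FPKM was 2398, 2186 and 2468 for the biliary markers and at most 2.07 for 6 hepatocyte, 1.06 for 5 fibroblast, 0.787 for 5 adipocyte and 0.130 for 5 leukocyte and endothelial markers. ADIPOQ, LEP, CIDEC and APOA1 were listed at 0 in every library.

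Differences are log2 ratios of FPKM + 1, which understate those of low genes, with a counting standard error after ±. The error comes from the deposited interval and says nothing about the spread between cultures. The size rule is a log2 ratio of 1 or more in either direction, and a second description asks whether the deposited FPKM intervals of both libraries are separate. All genes together had a median log2 ratio of -0.09 in HG against NG, -0.01 in L5 against HG and -0.10 in L5 against NG. Scaled to the total of the 92 spike-in RNAs, which was 26331, 33206 and 46009 FPKM in NG, HG and L5, these medians were -0.39, -0.41 and -0.79. With that scaling 113 genes were higher and 900 lower by the size rule in HG against NG, in place of 176 and 385. L5 against HG had 86 higher and 299 lower in place of 226 and 67, and L5 against NG had 89 and 3437 in place of 254 and 274. The spike-in amounts added per library are not given in the sources used here.

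**Figure D1:**
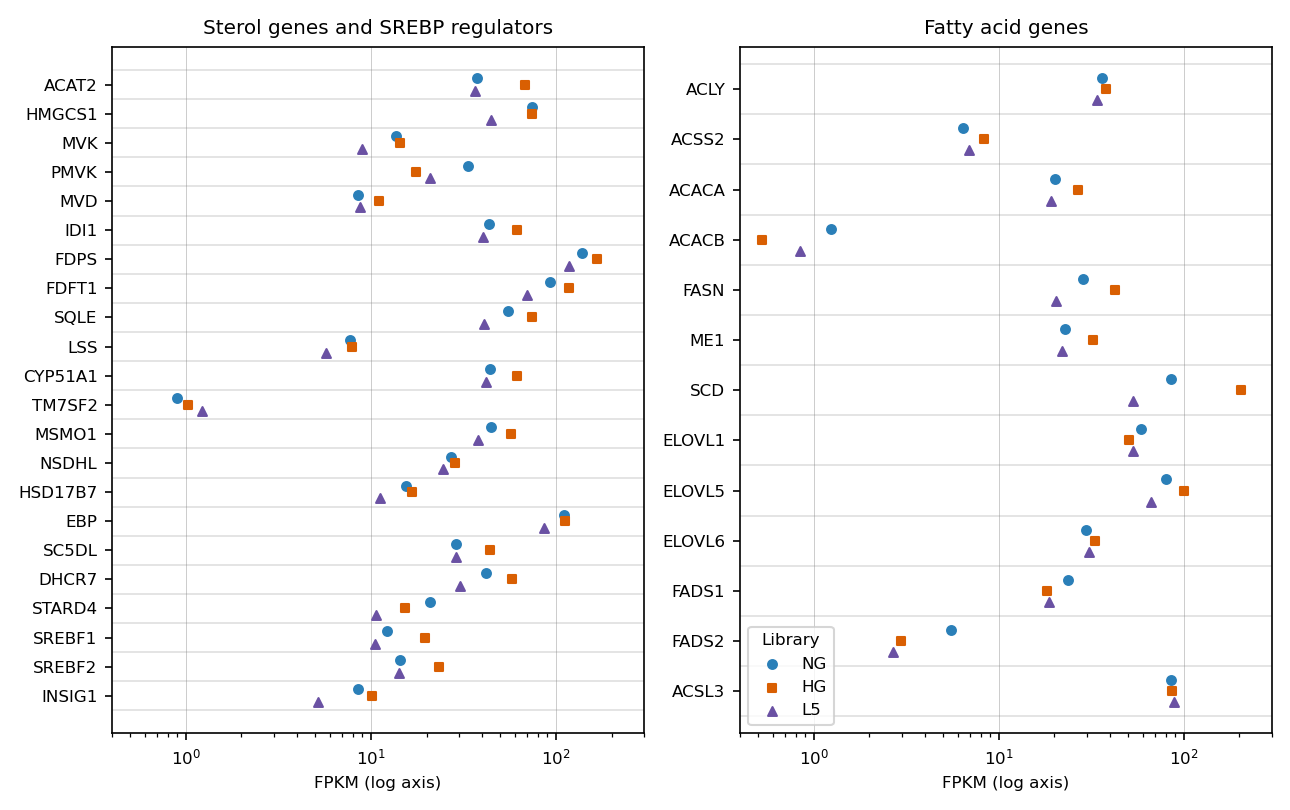
FPKM of 35 genes in NG (circles), HG (squares) and L5 (triangles) on a log axis, with sterol genes and regulators on the left and fatty acid genes on the right. THRSP, listed at 0 in NG and L5, is not drawn. SCD in HG stands at 204 FPKM, to the right of its 85.0 in NG and 52.9 in L5.

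Along the cholesterol route the highest levels were those of FDPS, EBP and FDFT1 and the lowest that of TM7SF2, in every library. The summed FPKM of the 18 enzymes was 818 in NG, 993 in HG and 658 in L5.

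The route starts with acetyl-CoA and ends at mevalonate-derived isoprene units. ACAT2, the cytosolic thiolase that joins acetyl groups, stood at 37.5 (NG), 67.9 (HG) and 36.6 FPKM (L5). HMGCS1, the HMG-CoA synthase, was listed at 74.2, 74.2 and 44.9 FPKM. ACAT2 thus stood high in HG alone, whereas HMGCS1 was level in both KKU-213 libraries on the deposited scale and low in L5. MVK, mevalonate kinase, was listed at 13.7, 14.4 and 8.96 FPKM, and like HMGCS1 was lower in L5, with overlapping intervals in NG and HG. MMAB, which overlaps MVK by 620 bases on the other strand, was listed at 16.4, 18.2 and 9.86 FPKM. The part of shared reads in MVK was not tested. PMVK, phosphomevalonate kinase, was listed at 33.4, 17.5 and 20.8 FPKM and was highest in NG. MVD, the decarboxylase that follows, was listed at 8.56, 11.1 and 8.71 FPKM with overlapping intervals throughout. IDI1, the isomerase of the isoprene units, was listed at 43.7, 61.6 and 40.2 FPKM, again highest in HG.

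FDPS, which joins isoprene units into farnesyl diphosphate, was listed at 138, 167 and 118 FPKM in NG, HG and L5. FDFT1, squalene synthase and the first enzyme committed to sterols, was listed at 92.6, 118 and 69.6 FPKM. SQLE, the squalene monooxygenase, was listed at 55.0, 74.6 and 40.8 FPKM. FDPS, FDFT1 and SQLE had the same order, HG above NG above L5, with separate intervals at each step, although with spike-in scaling FDPS in HG was not above NG. LSS, which closes squalene epoxide into lanosterol, was listed at only 7.72, 7.92 and 5.74 FPKM. On the deposited scale LSS in KKU-213 was level in both media.

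The enzymes that turn lanosterol into cholesterol were mixed. CYP51A1, the lanosterol demethylase, stood at 44.3 (NG), 61.3 (HG) and 42.1 FPKM (L5). MSMO1, a methyl sterol oxidase, was listed at 44.4, 57.3 and 38.2 FPKM. SC5DL, the desaturase now named SC5D, was listed at 28.9, 44.3 and 29.04 FPKM. In CYP51A1 and SC5DL, NG and L5 had overlapping intervals and HG stood above both. DHCR7, the reductase of the last step, was listed at 42.1, 57.8 and 30.3 FPKM. NSDHL, which removes a carboxyl group, was listed at 27.0, 28.5 and 24.4 FPKM, and HSD17B7, a keto-sterol reductase, at 15.5, 16.7 and 11.3. EBP, the sterol isomerase, was listed at 111, 112 and 86.6 FPKM. NSDHL, HSD17B7 and EBP were therefore level between media on the deposited scale, with overlapping intervals in NG and HG. They were lower in L5 than in HG. TM7SF2, a sterol reductase, was listed at 0.893, 1.03 and 1.23 FPKM on 50 to 124 fragments, where no difference was detectable at this depth. HSD17B7 has a pseudogene, HSD17B7P2, at 1.74 to 2.17 FPKM that can share its reads.

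STARD4, which carries sterol between membranes, stepped down from NG to HG to L5, at 21.0 (NG), 15.3 (HG) and 10.6 FPKM (L5). Its intervals were separate at each step.

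All 3 regulators had their highest FPKM in HG, an order that for INSIG1 did not hold with spike-in scaling. SREBF1 stood at 12.3 (NG), 19.7 (HG) and 10.5 FPKM (L5). SREBF2 was listed at 14.4, 23.3 and 14.1 FPKM. INSIG1, itself a known SREBP target, was listed at 8.49, 10.1 and 5.21 FPKM. Intervals in NG and L5 overlapped for SREBF1 and SREBF2, while INSIG1 was lower in L5 than in NG.

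In fatty acid synthesis the summed FPKM of the 14 genes was 485 in NG, 643 in HG and 417 in L5, and SCD alone made up 85.0, 204 and 52.9 FPKM of these sums. ACLY, which makes cytosolic acetyl-CoA from citrate, was listed at 36.3, 38.0 and 34.2 FPKM. ACSS2, which makes it from acetate, was listed at 6.41, 8.36 and 6.88 FPKM with overlapping intervals. ME1, the malic enzyme that supplies NADPH, was listed at 22.9, 32.3 and 22.1 FPKM. Of these suppliers, ME1 alone had an HG interval above both others.

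ACACA, the cytosolic acetyl-CoA carboxylase of the committed step, stood at 20.2 (NG), 26.9 (HG) and 19.1 FPKM (L5). FASN, fatty acid synthase, was listed at 28.6, 42.3 and 20.4 FPKM. ACACB, the mitochondrial carboxylase that restrains fatty acid oxidation, was listed at 1.25, 0.528 and 0.844 FPKM. ACACA in HG stood above both other libraries, while ACACB in HG stood below NG, with the L5 interval of ACACB overlapping both others. THRSP, a lipogenic nuclear protein of liver and fat, was at 0 in NG and L5 and at 0.0277 FPKM in HG, on 2 fragments, so it was left out as under 1 FPKM in every library.

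SCD (ENSG00000099194, GRCh37 chromosome 10, 102106881 to 102124591), the desaturase that makes oleate from stearate, stood at 85.0 (NG), 204 (HG) and 52.9 FPKM (L5). It rested on 21486, 83008 and 19497 fragments, the most of any member in each library, and its single listed isoform is 5362 bases long. A second gene ID, AL139819.1, overlaps SCD by 1980 bases and was listed at 15.0, 38.4 and 8.70 FPKM, so reads of the pair may be split between them.

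Among the other elongases and desaturases, only ELOVL5 shared the SCD order, HG above NG above L5, with separate intervals at each step, although with spike-in scaling its HG level was not above NG. ELOVL5, an elongase of polyunsaturated chains, was listed at 80.6, 100.2 and 66.7 FPKM. ELOVL6, the elongase of palmitate, was listed at 29.7, 33.4 and 30.9 FPKM, and ELOVL1, for very long chains, at 58.6, 50.5 and 53.4. FADS1 and FADS2, the desaturases of polyunsaturated fatty acids, were listed at 23.6, 18.2 and 18.8 FPKM and at 5.56, 2.98 and 2.68 FPKM. Both desaturases were highest in NG, and their HG and L5 intervals overlapped. FADS1 and FADS2 overlap by 29692 bases on opposite strands and FEN1, at 80.2 to 88.2 FPKM, lies on FADS2's strand inside it, so the low FADS2 values are uncertain. ACSL3, which activates fatty acids to acyl-CoA, was level on the deposited scale, at 85.9, 86.0 and 88.5 FPKM.

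**Figure D2:**
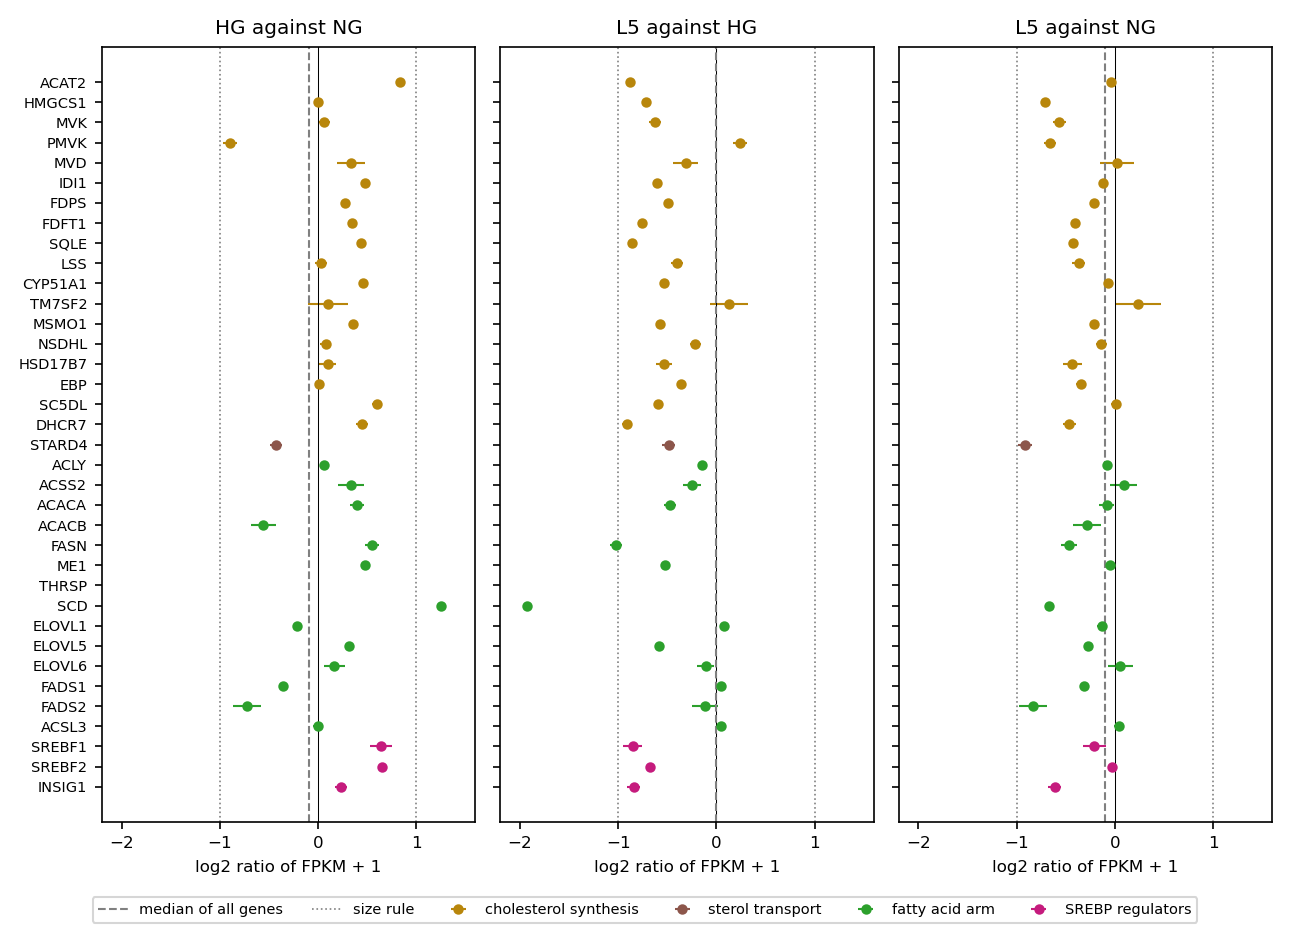
Log2 ratio of FPKM + 1 for each gene in each comparison, with the counting standard error as a bar, the median of all genes dashed and the size rule dotted. Genes under 1 FPKM in both libraries have no point. SCD lies at 1.25 in HG against NG and at -1.92 in L5 against HG, where FASN (-1.02) is the other gene past a dotted line.

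The first comparison asks what medium glucose does to KKU-213, as far as 2 separate cultures can show. In HG, sterol genes from both ends of the route, FASN, ACACA, SCD and all 3 regulators were higher than in NG, most of them by less than the size rule; with spike-in scaling the median of cholesterol synthesis was -0.02 and INSIG1 was not higher. SCD was listed 2.40 times as high in HG (log2 ratio 1.25 ± 0.02), as high as or higher than all but 0.687% of genes. It was the 1 of 35 measured members past the size rule in HG against NG, where 4.19% of all 13383 genes were past it, 1.32% higher and 2.88% lower. With spike-in scaling its ratio was 0.92, inside the size rule, and PMVK (-1.22) and FADS2 (-1.01) were past it, lower in HG. Of all 13383 genes 900 were then past it lower and 113 higher, around a median of -0.39.

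By separate intervals, 17 of the 35 were higher in HG, where 17.7% of all genes were, and 6 were lower, where 31.2% were. After SCD came ACAT2 (0.84 ± 0.04), SREBF2 (0.66 ± 0.04), SREBF1 (0.64 ± 0.11), SC5DL (0.60 ± 0.05) and FASN (0.55 ± 0.07). FDPS, ELOVL5 and INSIG1, at 0.28, 0.31 and 0.23, were also higher, but with spike-in scaling stood at -0.06, -0.02 and -0.07. The 6 lower genes were PMVK (-0.90 ± 0.07), FADS2 (-0.72 ± 0.14), ACACB (-0.56 ± 0.13), STARD4 (-0.43 ± 0.06), FADS1 (-0.36 ± 0.04) and ELOVL1 (-0.21 ± 0.05). HMGCS1, ACSL3 and EBP were level on the deposited scale, at 0.00, 0.00 and 0.01. With spike-in scaling HMGCS1 stood at -0.33, beside -0.39 for all genes. MVK and LSS, at 0.06 and 0.03 on the deposited scale, then stood at -0.25 and -0.27. The differences were thus not shared by the whole pathway: within cholesterol synthesis 9 genes were higher, 1 was lower and 8 had overlapping intervals.

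The cholesterol synthesis genes had a median log2 ratio of 0.31 in HG against NG, from -0.90 (PMVK) to 0.84 (ACAT2), beside -0.09 for all genes; with spike-in scaling these were -0.02 and -0.39. The 13 measured genes of fatty acid synthesis had a median of 0.16, or 0.11 with THRSP included, and -0.16 with spike-in scaling. ACACB passed the filter of 1 FPKM through NG alone. Without ELOVL5 and ME1, which lie on chromosome 6, the fatty acid median was 0.06.

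Chromosome 6 as a whole differed between the libraries, and ACAT2, ELOVL5 and ME1 lie on it. Its genes had a median log2 ratio of 0.24 in HG against NG and -0.31 in L5 against HG. Genes within 10 Mb of ELOVL5 had medians of 0.34 and -0.38, next to 0.31 and -0.58 for ELOVL5 itself. Genes within 10 Mb of ME1 had medians of 0.26 and -0.33, next to 0.48 and -0.53 for ME1. For ACAT2 these were 0.14 and -0.20 against its own 0.84 and -0.88. SOD2, which overlaps ACAT2 by 2202 bases on the other strand, stood at 41.3 (NG), 76.1 (HG) and 35.9 FPKM (L5), close to ACAT2's order. TCP1, which overlaps ACAT2 by 615 bases, also on the other strand, was listed at 263, 376 and 261 FPKM. The part of the chromosome and of shared reads in these ratios was not tested. Genes within 10 Mb of SCD had medians of -0.08 in HG against NG and -0.02 in L5 against HG, near those of all genes.

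L5 against HG sets the subline against KKU-213 at the same labelled glucose. It uses the same HG library as the comparison of media, so an unusual value of that library would appear in both with opposite signs. L5 was lower for nearly the whole sterol route, for SCD, FASN and ACACA, and for all 3 regulators. SCD was listed in L5 at 0.260 times its HG level (-1.92 ± 0.02), and 0.0762% of genes had a ratio as low. FASN (ENSG00000169710, GRCh37 chromosome 17, 80036214 to 80056208) was listed at 0.481 times its HG level (-1.02 ± 0.06). They were the 2 of 34 measured members past the size rule in L5 against HG, both lower, where 2.23% of all 13129 genes were past it, 0.510% lower and 1.72% higher. With a pseudocount of 5 in place of 1, FASN dropped inside the size rule.

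By separate intervals, 25 of the 34 were lower in L5, where 22.1% of all genes were, and 1 was higher, where 21.0% were. In cholesterol synthesis 15 of 18 were lower, led by DHCR7 (-0.91 ± 0.05), ACAT2 (-0.88 ± 0.04), SQLE (-0.86 ± 0.03), FDFT1 (-0.76 ± 0.03) and HMGCS1 (-0.71 ± 0.03). PMVK was the 1 higher gene (0.24 ± 0.07), at -0.21 with spike-in scaling, and MVD and TM7SF2 had overlapping intervals. SREBF1, INSIG1 and SREBF2 stood at -0.85 ± 0.10, -0.84 ± 0.06 and -0.68 ± 0.04. The median log2 ratio in cholesterol synthesis was -0.55, from -0.91 to 0.24, beside -0.01 for all genes.

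The genes of fatty acid synthesis were more uneven. Of 12 measured, 6 were lower in L5 than in HG: SCD, FASN, ELOVL5 (-0.58 ± 0.02), ME1 (-0.53 ± 0.04), ACACA (-0.48 ± 0.06) and ACLY (-0.15 ± 0.03). The other 6 had overlapping intervals, among them ACSL3 (0.04 ± 0.04), ELOVL6 (-0.11 ± 0.09) and FADS1 (0.04 ± 0.04). ELOVL5 and ME1 lie on chromosome 6, whose genes had a median log2 ratio of -0.31 in L5 against HG. The median of fatty acid synthesis was -0.20, or -0.13 over all 14. Spike-in scaling moved both medians further down, to -1.01 for cholesterol synthesis and -0.63 for fatty acid synthesis, with -0.41 for all genes. The size rule then passed 15 members, all lower, and of all 13129 genes 299 lower and 86 higher.

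**Figure D3:**
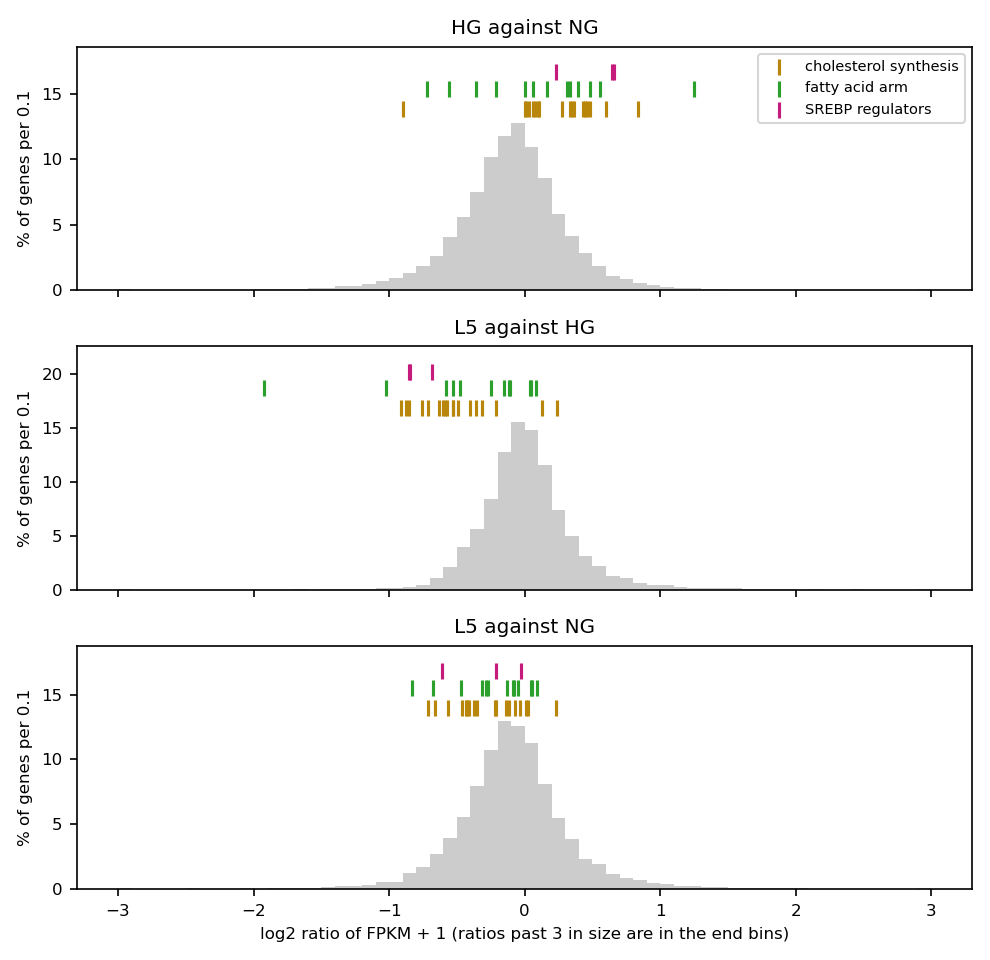
Percent of all genes per 0.1 of log2 ratio (grey bars) in each comparison, with the ratio of each measured enzyme and regulator as a tick above (STARD4 is not drawn). In L5 against HG the cholesterol synthesis ticks centre on -0.55 and those of the regulators on -0.84, left of the all-gene median of -0.01.

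L5 against NG differs in both subline and labelled glucose, which cannot be told apart here. On the deposited scale sterol genes were modestly lower in L5, and SREBF1 and SREBF2 had overlapping intervals; with spike-in scaling SREBF1 and SREBF2 stood at -0.95 and -0.78, beside -0.79 for all genes. None of 35 measured members passed the size rule, where 3.92% of all 13474 genes were past it, 1.89% higher and 2.03% lower. By separate intervals 19 were lower in L5, where 30.4% of all genes were, and none was higher, where 16.5% were. The lowest ratios were those of STARD4 (-0.92 ± 0.07), FADS2 (-0.83 ± 0.14), HMGCS1 (-0.71 ± 0.03), SCD (-0.67 ± 0.02), PMVK (-0.66 ± 0.06) and INSIG1 (-0.61 ± 0.07). With a pseudocount of 0.1, FADS2 passed the size rule. SREBF2 and SREBF1 stood at -0.02 ± 0.04 and -0.21 ± 0.12. The median was -0.28 for cholesterol synthesis and -0.13 for fatty acid synthesis, beside -0.10 for all genes. With spike-in scaling these medians were -1.04, -0.87 and -0.79. The size rule then passed 17 members, all lower, and of all 13474 genes 3437 lower and 89 higher. With median scaling of the libraries CYP51A1 and ACLY, at -0.07 and -0.09, stood at 0.02 and 0.00.

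The deposited interval missed the listed FPKM for 3 members in NG, 5 in HG and 3 in L5. These were PMVK, CYP51A1 and FASN in every library, and MVD and SCD in HG. In bulk RNA, a low level in every cell and a low share of expressing cells cannot be told apart.

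Further genes around SREBP were described as whole lists. The size rule passed 4.19% of all genes in HG against NG, 2.23% in L5 against HG and 3.92% in L5 against NG. Of 6 genes of SREBP transport and processing, none passed the size rule in any comparison. SCAP, the escort of SREBP, stood at 11.5 (NG), 13.4 (HG) and 8.14 FPKM (L5) (-0.66 ± 0.07 in L5 against HG). INSIG2, the relative of INSIG1, was listed at 13.0, 13.3 and 16.8 FPKM (0.31 ± 0.07). INSIG1 and INSIG2 therefore had opposite signs in L5 against HG on the deposited scale. Dividing by the spike-in totals would put INSIG2 lower in L5 as well. Of 9 further isoprenoid and sterol genes, none passed the size rule either. Their median log2 ratio was -0.16 in HG against NG, beside -0.09 for all genes. By separate intervals 2 of the 9 were higher in HG, where 17.7% of all genes were, and 5 lower, where 31.2% were. NUS1, a subunit of the enzyme for dolichol synthesis that also lies on chromosome 6, was listed at 32.4, 44.5 and 26.2 FPKM. DHDDS, of the same list, had the opposite sign in HG against NG (-0.61 ± 0.13), at 17.1, 10.8 and 10.8 FPKM. TMEM97, a sterol-responsive membrane protein, was listed at 45.7, 32.9 and 23.5 FPKM and had the order of STARD4.

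Of 13 genes of sterol uptake, storage and export, 12 were measured in HG against NG. By the size rule 1 was lower, against 2.88% of all genes. That gene was NPC2, the lysosomal carrier of cholesterol, at 282 (NG), 109 (HG) and 114 FPKM (L5) (-1.36 ± 0.03). In L5 against HG 2 of 12 measured were lower by the size rule, against 0.510% of all genes. SCARB1, the receptor for high-density lipoprotein, was listed at 15.0, 16.4 and 6.32 FPKM (-1.25 ± 0.06). ABCA1, the sterol exporter, was listed at 0.984, 2.89 and 0.529 FPKM (-1.35 ± 0.06). ABCA1, named after its values were seen since it is under 5 FPKM, was highest in HG. On the deposited scale SCARB1 was level in KKU-213 and low in L5. In L5 against HG, ABCA1 passed the filter of 1 FPKM through HG alone. In L5 against NG 2 of 11 measured were lower by the size rule, against 2.03% of all genes. These were NPC2 (-1.30) and SCARB1 (-1.13).

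Of 21 further fatty acid enzymes, 18 were measured in HG against NG. By the size rule FADS3 was higher, against 1.32% of all genes, and ACSL5 lower, against 2.88%. FADS3, the neighbour of FADS1 and FADS2, stood at 15.5 (NG), 41.4 (HG) and 23.7 FPKM (L5) (1.36 ± 0.07). Its sign in HG against NG was opposite to that of FADS1 and FADS2. ACSL5, an acyl-CoA synthetase, stood at 34.0 (NG) and 15.8 FPKM (HG) (-1.06 ± 0.04), and its estimate failed in L5, where its listed 0 was not used. The median log2 ratio of this list was 0.08 in HG against NG and -0.17 in L5 against HG. MLXIPL, which encodes the glucose-responsive factor ChREBP, was listed at 0.0981, 0.225 and 0.114 FPKM, also named outside the rule, and none of the 3 measured genes of its list passed the size rule in any comparison.

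**Figure D4:**
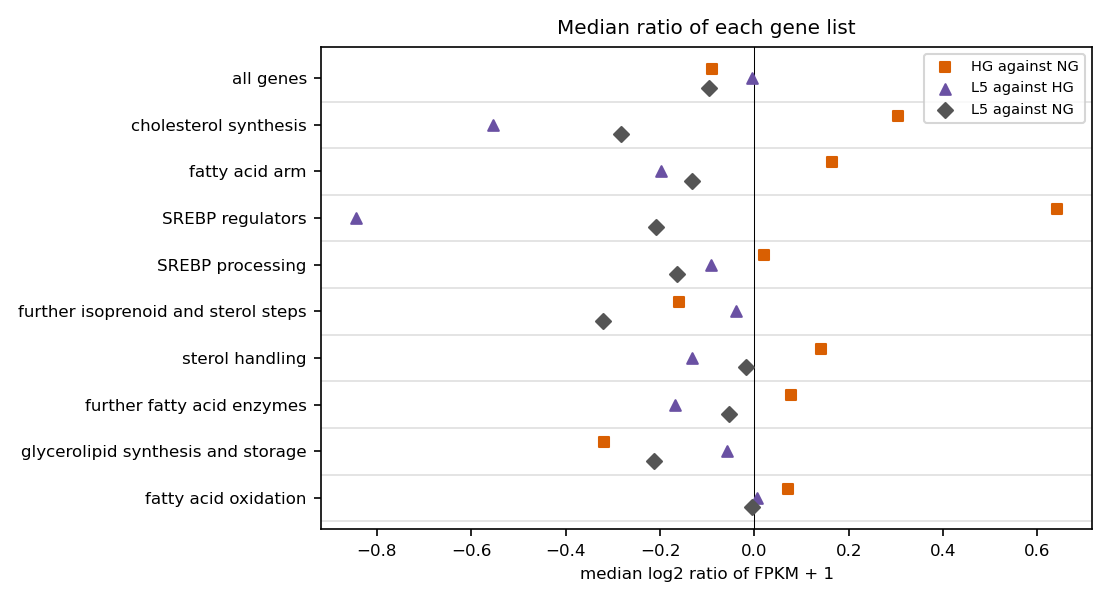
Median log2 ratio of FPKM + 1 over the measured genes of each list, for HG against NG (squares), L5 against HG (triangles) and L5 against NG (diamonds). The regulators have 0.64 and -0.84 in the comparisons that use HG, and fatty acid oxidation has 0.07 and 0.00.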

How the data were processed

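Strand-specific poly-A RNA libraries were sequenced as pairs of 100-base reads, per the labels' protocols. The authors used BWA, TopHat and Cufflinks on GRCh37, per the submitters' processing notes; versions and annotation are not given in the sources used here. The deposited FPKM values and their bounds were used as they stand. The deposited coverage, a signal not scaled to depth, gave fragments (200 bases each); its ratio to FPKM lay within 1% of the library's median for 89.8%, 91.2% and 90.9% of isoforms above 1 FPKM in NG, HG and L5.

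Compared genes had status OK in both libraries, at least 1 FPKM in 1 of them, a longest isoform of 300 nt or more, and were no spike-ins. Rows of 1 gene ID were summed. Bounds were read as 2 standard errors from the estimate and rescaled to centre on the FPKM. Members and lists were chosen with earlier results of these data known. Every member was to be given with its values, and, in each further list, genes past the size rule and the 2 largest ratios at 5 FPKM or more; some of the latter, and some single markers, are not reported here. Steps were tested on simulated data. Alternatives are given in the closing section. Python 3.11.15, pandas 2.3.3, numpy 2.4.6 and matplotlib 3.10.9 were used.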

Additional observations from a re-analysis of the deposited data

How the results depend on the processing

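No paired analysis was possible because each group had 1 library, which also leaves no replicate to leave out. Sums of isoform FPKM, no filter on FPKM and median scaling left every count within 1.5 times of the one reported and every median of cholesterol and fatty acid synthesis with the same sign. With a pseudocount of 0.1 the size rule passed 2, 2 and 1 members and 1101, 569 and 1024 genes in HG against NG, L5 against HG and L5 against NG, with ACACB (-1.10) added in HG against NG. With a pseudocount of 5 it passed 1, 1 and 0 members and 150, 75 and 152 genes. At 5 FPKM or more in 1 library it passed 316, 170 and 289 genes and the same 1, 2 and 0 members in number. With spike-in scaling it passed 2, 15 and 17 members, all lower, and 1013, 385 and 3526 genes; the medians were -0.020, -1.01 and -1.04 for cholesterol synthesis and -0.16, -0.63 and -0.87 for fatty acid synthesis. Separate intervals, a weaker demand on well-covered genes, held for 23, 26 and 19 members and 6538, 5665 and 6316 genes. Without members on chromosome 6 the fatty acid median in HG against NG was 0.064. Depth limited TM7SF2, ACACB and THRSP.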

Other observations

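Genes that store or burn fatty acids were counted as whole lists. Of all genes, 4.19% passed the size rule in HG against NG, 2.23% in L5 against HG and 3.92% in L5 against NG. Of 12 genes of glycerolipid synthesis and storage, 11 were measured and none passed the size rule in any comparison. Their median log2 ratio was -0.32 in HG against NG and -0.06 in L5 against HG, beside 0.31 and -0.55 for cholesterol synthesis and -0.09 and -0.01 for all genes. AGPAT2, an acyltransferase of phosphatidate synthesis, stood at 17.8 (NG), 9.06 (HG) and 11.1 FPKM (L5) (-0.90 ± 0.09 in HG against NG). LPIN1, the phosphatidate phosphatase of the next step, was listed at 14.3, 9.55 and 9.13 FPKM. Both were highest in NG. PNPLA2, which starts the breakdown of stored fat, was listed at 5.58, 8.37 and 5.33 FPKM and was highest in HG.

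Of 13 genes of fatty acid oxidation, 11 were measured, with none past the size rule in any comparison and medians of 0.07 in HG against NG and 0.00 in L5 against HG. CPT2, the carnitine transferase of the inner mitochondrial membrane, stood at 4.74 (NG), 8.91 (HG) and 9.70 FPKM (L5) (0.79 ± 0.07 in HG against NG). CPT1A, its outer membrane counterpart, was listed at 14.9, 16.5 and 21.1 FPKM. On the deposited scale both carnitine transferases were lowest in NG, and L5 had no lower level than HG, unlike SCD and FASN. Dividing by the spike-in totals would put L5 below HG for both, and CPT1A highest in NG. SLC25A20, of the same list, was highest in NG, at 9.11, 6.10 and 5.59 FPKM (-0.51 ± 0.10 in HG against NG). By separate intervals 3 of the 11 were higher in HG than in NG, where 17.7% of all genes were, and 4 lower, where 31.2% were.

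Isoform shares were compared in the 27 members at 10 FPKM or more in every library, and 1 had a shift of at least 20 percentage points. A short DHCR7 isoform of 523 bases made up 23.9% (NG), 7.06% (HG) and 0.00289% (L5) of the gene's summed isoform FPKM. The leading isoform, of 2666 bases, held 43.1%, 40.3% and 46.0%. Estimates for so short an isoform of a gene with many overlapping transcripts are uncertain.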
